A study of Rattus norvegicus with 6 samples.

Results

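The genes described here encode steroid-converting enzymes, the corticosteroid receptors and a pair of transcripts that corticosteroids induce. They were Hsd17b2, Hsd17b4, Hsd17b10, Hsd11b1, Hsd11b2, Srd5a1, Nr3c1, Nr3c2, Fkbp5 and Tsc22d3, listed by name, and the row of each was chosen by its measured level: the row of the array table with the highest mean over the 6 arrays was kept. All 10 of 10 genes were found, each with 1 row, among 7126 genes with a symbol and 19345 transcript rows. The list was drawn up with the difference between regimens already known, for Hsd17b2 in particular, so the differences of these genes are given as a description and not as independent evidence.

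The livers came from male Sprague-Dawley (SD) rats of 90 to 120 days that were bled by tail amputation as a model of uncontrolled hemorrhagic shock. From the amputation on, Ringer's solution was infused to hold mean arterial pressure at 50 to 60 mmHg in the limited group, or with the aim of staying above 80 mmHg in the aggressive group. Both groups therefore shared the kind of injury, the surgery and the kind of fluid, and tissue was taken at 330 min. Blood loss and infused volume were not compared here and cannot be told apart from the pressure target. Livers of 3 of the 6 rats assigned to each regimen were hybridised singly to 1-colour Cy3 NimbleGen arrays, and rats without shock were not analysed here.

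Hydroxysteroid dehydrogenases interconvert active and inactive steroid hormones by oxidising or reducing a hydroxyl group, and the direction of the reaction differs between family members. The liver takes up circulating glucocorticoid, regenerates it from its inactive keto form through the enzyme of Hsd11b1, and clears steroids by reduction and conjugation. Glucocorticoid binds the receptor encoded by Nr3c1, which is held by HSP90 chaperones until it moves to the nucleus and drives genes of glucose and amino acid metabolism.

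Promoter sequence is shown for 3 of the genes. RefSeq windows of 250 bases before the annotated start, on the rat assembly GRCr8, were matched by symbol for 6 of the 10 genes (Hsd17b4, Hsd17b10, Srd5a1, Nr3c1, Fkbp5 and Tsc22d3) in 9 windows, 2 for Nr3c1 and 3 for Tsc22d3. Windows of Hsd17b2, Hsd11b1, Hsd11b2 and Nr3c2 were not used here. Each sequence is written 5' to 3' on the strand of the gene, and capitals mark a match to any of 8 motifs. Hsd17b4 is shown for its copies of the receptor hexamer, and Srd5a1 and Fkbp5 because their groups did not overlap.
Hsd17b4, chr18:45515177-45515426 (+ strand): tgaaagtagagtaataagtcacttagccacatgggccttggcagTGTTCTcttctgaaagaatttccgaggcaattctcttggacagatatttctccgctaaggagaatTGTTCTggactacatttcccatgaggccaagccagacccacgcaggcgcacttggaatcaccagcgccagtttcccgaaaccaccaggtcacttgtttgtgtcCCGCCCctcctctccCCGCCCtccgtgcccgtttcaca
Srd5a1, chr1:35514664-35514913 (+ strand): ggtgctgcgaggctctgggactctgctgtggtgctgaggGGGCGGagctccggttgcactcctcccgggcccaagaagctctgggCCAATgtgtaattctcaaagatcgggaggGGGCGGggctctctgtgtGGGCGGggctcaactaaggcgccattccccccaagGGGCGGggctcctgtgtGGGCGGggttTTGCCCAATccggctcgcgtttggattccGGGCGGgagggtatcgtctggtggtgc
Fkbp5, chr20:6543556-6543805 (- strand): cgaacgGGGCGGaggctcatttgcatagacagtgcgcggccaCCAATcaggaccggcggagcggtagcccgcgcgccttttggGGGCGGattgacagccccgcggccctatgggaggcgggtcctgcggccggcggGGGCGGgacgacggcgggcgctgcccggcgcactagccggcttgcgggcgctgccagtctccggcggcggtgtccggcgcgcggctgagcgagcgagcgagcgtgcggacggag

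The motifs, searched on both strands, were the glucocorticoid receptor hexamer TGTTCT, its full palindrome (AGAACA and TGTTCT separated by 3 bases), the TATA box TATAAA, the CCAAT box CCAAT, the C/EBP motif TTGCNNAAT, the HNF4 motif CAAAGTCCA, the E-box CACGTG and the GC box GGGCGG. The hexamer was found in 1 of 9 windows, that of Hsd17b4, with 2 copies, while 17.5% of 33465 windows of all genes held it. The full palindrome was found in 0 of 9 windows and in 0.012% of all windows. The window of Srd5a1 held 6 GC boxes and 1 C/EBP match, a motif found in 2.26% of all windows, and that match overlaps 1 of its 2 CCAAT boxes. The window of Fkbp5 held 3 GC boxes and 1 CCAAT box. A GC box was present in 7 of 9 windows against 30.5% of all windows. Bases G and C made up 66.4% of the Srd5a1 window and 76% of the Fkbp5 window, against a median of 51.2% over all windows. These matches describe letters only and say nothing of binding.

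The tissue label was checked against markers before the genes were read. All 10 hepatocyte markers, Alb, Ttr and Apoa1 among them, were measured. Their summed intensity was 316210 to 326040 on the limited arrays and 329010 to 359290 on the aggressive arrays. Alb reached 54837.5 on aggressive array 2, beside a highest value of 57239.7 in the whole table. Whether markers this bright could still separate the groups was not tested. The test between regimens was passed by 0 of 10, and 2 of 10 were lower under limited resuscitation without overlap, beside 9.76% of all rows. Median array intensity was 212 to 245. Aggressive arrays 1 and 3 stood apart. Their lung markers summed to 7897 and 11245, against 3730 on aggressive array 2 and 2864 to 3511 on the limited arrays, and 11 and 12 of 15 measured lung markers (of 16 listed) exceeded the mean of the limited arrays by 4-fold or more, against 1 of 15 on aggressive array 2. The surfactant gene Sftpc was 1247 and 1734 on arrays 1 and 3 and 33.7 on array 2. No marker was at 0, since the lowest value of the whole table was 13.5. The part of these transcripts in the differences below was not tested, and values without arrays 1 and 3 are given beside some of the results. In whole liver, fewer cells of a type and less RNA per cell cannot be told apart.

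Among the enzymes that act on sex steroids, Hsd17b2 was higher under limited resuscitation and the groups of Hsd17b4 and Hsd17b10 overlapped. Hsd17b2 encodes the enzyme that oxidises estradiol and testosterone to their less active keto forms. Its intensity was 6041, 6604 and 6818 on the limited arrays and 2470, 2068 and 1993 on the aggressive arrays. All limited arrays lay above all aggressive arrays. The means were 6488 ± 401 (SD, n = 3) and 2177 ± 256 (SD, n = 3), 2.99-fold apart, with a log2 difference of 1.58 and a 95% confidence interval of 1.15 to 2.01. Differences here are limited minus aggressive on the log2 scale of the RMA intensities, tested by limma, which moderates the spread of each row towards that of all rows, with Benjamini-Hochberg adjustment over the 19345 rows. In that fit its adjusted p was 0.0482, rank 18 of 19345 rows by p. Of the 10 genes 1 was called at an adjusted p under 0.05, beside 0.114% of all rows, and 1 of 10 in the direction of higher under limited resuscitation, beside 0.0414%, with 0 of 10 lower, beside 0.0724%. An unadjusted p under 0.05 was reached by 3 of 10, Hsd17b2, Srd5a1 and Fkbp5, beside 13.1% of all rows. The choice of the list used this contrast, so nothing is read from these counts. The difference of Hsd17b2 was 1.65 against aggressive array 2 alone, which lacked most lung transcripts, where the lone array was assumed to vary like the limited ones (adjusted p = 0.514, limma). With any single array left out, limited 1, 2 or 3 or aggressive 1, 2 or 3, the difference lay between 1.52 and 1.67 and the adjusted p between 0.120 and 0.213 (limma). With all 6 arrays the call was also lost when arrays were centred on their medians (adjusted p = 0.0654, limma) and with the replicate number as a block (adjusted p = 0.293, limma).

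Hsd17b4 encodes the peroxisomal multifunctional enzyme, which acts mainly in the beta-oxidation of very long-chain fatty acids and bile acid side chains. It was 4785, 4936 and 3907 under limited and 4128, 3126 and 4216 under aggressive resuscitation. The groups overlapped, and the log2 difference of 0.25 had a confidence interval of -0.24 to 0.75 (adjusted p = 0.662, limma). It was 0.12 without aggressive array 2 and 0.53 against that array alone. Hsd17b10 encodes a mitochondrial dehydrogenase of isoleucine breakdown that is also a subunit of mitochondrial RNase P. Its values were 8332, 10198 and 8914 under limited and 8741, 7973 and 11357 under aggressive resuscitation. Both the highest and the lowest value were aggressive arrays, and the log2 difference was -0.02 (interval -0.51 to 0.47; adjusted p = 0.979, limma). These intervals still hold differences of up to 0.75 on the log2 scale for Hsd17b4.

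**Figure D1:**
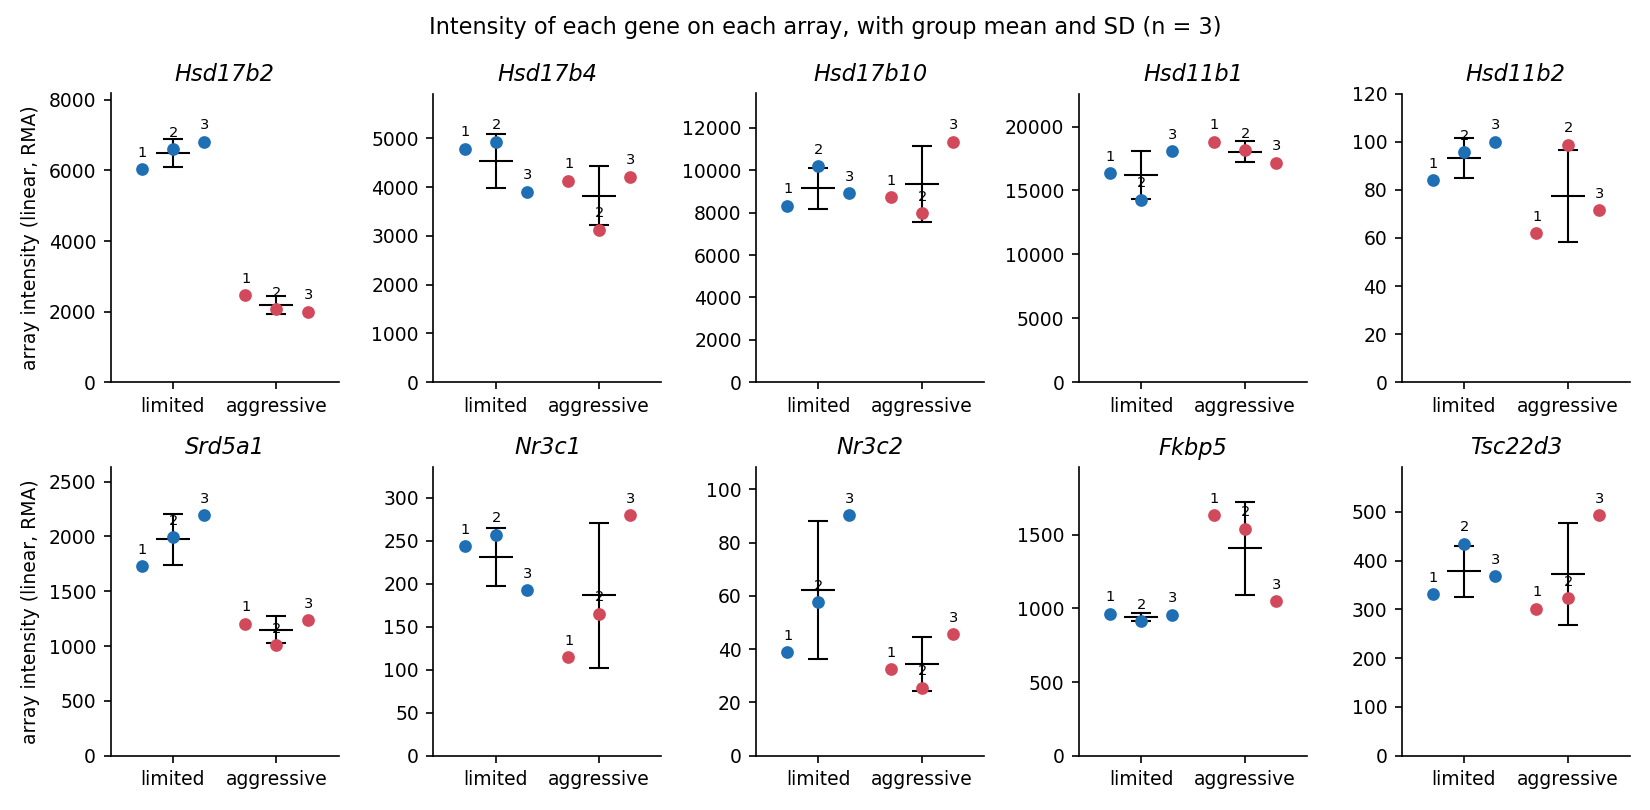
Array intensity (linear scale, y axis from 0) of each of the 10 genes on the 3 limited (blue) and 3 aggressive (red) arrays, with points numbered by replicate and bars for the group mean and SD. Groups do not overlap for Hsd17b2, Srd5a1 and Fkbp5, and aggressive array 3 is the highest of all 6 arrays for Hsd17b10, Nr3c1 and Tsc22d3.

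The enzymes that set glucocorticoid exposure inside the cell showed no difference that passed the test. Hsd11b1, the reductase that regenerates corticosterone in rat liver, was bright on all arrays, at 16352, 14283 and 18060 under limited and 18823, 18134 and 17185 under aggressive resuscitation. Its log2 difference was -0.16 with an interval of -0.59 to 0.27 (adjusted p = 0.758, limma). The aggressive arrays lay close together, with an SD of 0.07 on the log2 scale. Hsd11b2, the opposing oxidase that protects the mineralocorticoid receptor in kidney, was dim, at 0.29 to 0.44 of the array median. It was 84.0, 95.7 and 100.1 under limited and 62.0, 98.7 and 71.5 under aggressive resuscitation. Its lower aggressive values were those of arrays 1 and 3, the arrays with lung transcripts, and the log2 difference of 0.29 (interval -0.24 to 0.83) became -0.09 against aggressive array 2 alone. Neither Hsd11b2 difference passed the test (adjusted p = 0.642 with all arrays and 0.960 against array 2, limma).

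Srd5a1, the steroid 5-alpha-reductase of liver, which reduces testosterone and corticosterone, was higher on every limited array than on any aggressive array. Its intensity was 1731, 1995 and 2195 under limited and 1203, 1009 and 1233 under aggressive resuscitation. The means, 1973 ± 233 (SD, n = 3) and 1148 ± 122 (SD, n = 3), differed 1.72-fold, a log2 difference of 0.78 with an interval of 0.33 to 1.23. The difference did not pass over all rows (adjusted p = 0.187, limma). It passed when dim rows, those with a mean log2 intensity below the median of all row means, were left out (adjusted p = 0.0179, limma). With an intensity trend and robust prior it passed as well (adjusted p = 0.00758, limma). Rows called over the whole table rose from 22 to 483 without dim rows and to 570 with that prior. The log2 difference of Srd5a1 was 0.96 against aggressive array 2 alone. Groups that did not overlap were found for 3 of the 10 genes, beside 19.8% of all rows. Higher under limited resuscitation were 2 of 10, Hsd17b2 and Srd5a1, beside 10.0%, and lower 1 of 10, Fkbp5, beside 9.76%. Over the 6 arrays Hsd17b2 and Srd5a1 had a Pearson correlation of 0.96, the highest among the pairs of these genes, a value that includes the shared split between regimens. Within regimens their order differed in the aggressive group, where array 3 was lowest for Hsd17b2 and highest for Srd5a1.

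**Figure D2:**
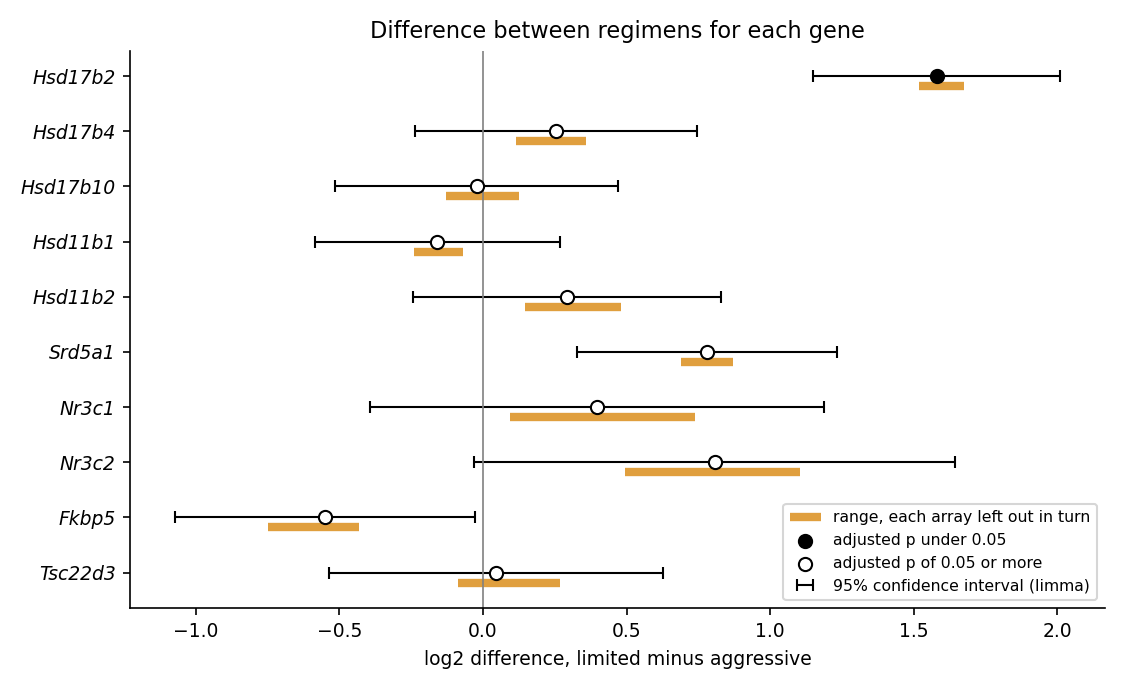
Log2 difference (limited minus aggressive) of each gene with its 95% confidence interval from limma, and in orange the range of the difference when each array was left out in turn. The interval lies above 0 for Hsd17b2 and Srd5a1 and below 0 for Fkbp5, and Hsd17b2 (filled) had an adjusted p under 0.05.

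The corticosteroid receptors had low intensities that scattered within the groups, and neither passed the test. Nr3c1, the glucocorticoid receptor, lay at 0.54 to 1.14 of the array medians and was 244, 257 and 192 on the limited arrays and 114, 165 and 280 on the aggressive arrays. The aggressive arrays spread 2.45-fold and enclosed all limited values. The log2 difference was 0.40 (interval -0.40 to 1.19; adjusted p = 0.676, limma), and it moved to 0.09 without aggressive array 1 and to 0.74 without aggressive array 3. Nr3c2, the mineralocorticoid receptor, was lower still against the array medians, at 0.11 to 0.40 of them. It was 38.9, 57.5 and 90.4 under limited and 32.5, 25.5 and 45.6 under aggressive resuscitation. Limited array 1 lay below aggressive array 3, and the log2 difference of 0.81 had an interval of -0.03 to 1.65 (adjusted p = 0.402, limma). It ranged from 0.49 without limited array 3 to 1.10 without limited array 1, and was 1.20 against aggressive array 2 alone.

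Of the corticosteroid-induced transcripts, Fkbp5 was lower on every limited array than on any aggressive array, and Tsc22d3 overlapped. Fkbp5 encodes a co-chaperone that binds the receptor complex with HSP90 and reduces the affinity of the receptor for hormone. Its intensity was 963, 912 and 956 under limited and 1633, 1542 and 1048 under aggressive resuscitation. Aggressive array 3 lay just above the limited range, while arrays 1 and 2 were well above it. The group means were 944 ± 27.2 (SD, n = 3) and 1408 ± 315 (SD, n = 3). The log2 difference was -0.55 (interval -1.07 to -0.03), or 1.46-fold higher under aggressive resuscitation, and it did not pass (adjusted p = 0.363, limma). Against aggressive array 2 alone it was -0.71. Tsc22d3, which encodes the anti-inflammatory protein GILZ, was 331, 435 and 368 under limited and 302, 323 and 494 under aggressive resuscitation. Aggressive array 3 was the highest of the 6 and aggressive arrays 1 and 2 were the lowest. The log2 difference was 0.05 (interval -0.54 to 0.63; adjusted p = 0.959, limma), and it was 0.27 without aggressive array 3, -0.09 without aggressive array 1, -0.04 without aggressive array 2 and -0.06 without limited array 2.

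Aggressive array 3 differed from arrays 1 and 2 in the same genes. On the log2 scale it deviated from its group mean by 0.68 for Nr3c1, 0.44 for Tsc22d3, 0.44 for Nr3c2 and 0.30 for Hsd17b10. For Fkbp5 it deviated by -0.40. The dim gene Nr3c2 deviated further on limited arrays 1 and 3, by -0.59 and 0.62. Aggressive array 1 deviated by -0.61 for Nr3c1, -0.27 for Tsc22d3 and 0.24 for Fkbp5. Arrays 1 and 3, the arrays with lung transcripts, lay on opposite sides of their group mean for Nr3c1, Tsc22d3 and Fkbp5. As a description over 6 arrays of 1 study, Nr3c1 correlated with Tsc22d3 at 0.80 and with Fkbp5 at -0.85. Hsd17b10 and Tsc22d3 correlated at 0.93.

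**Figure D3:**
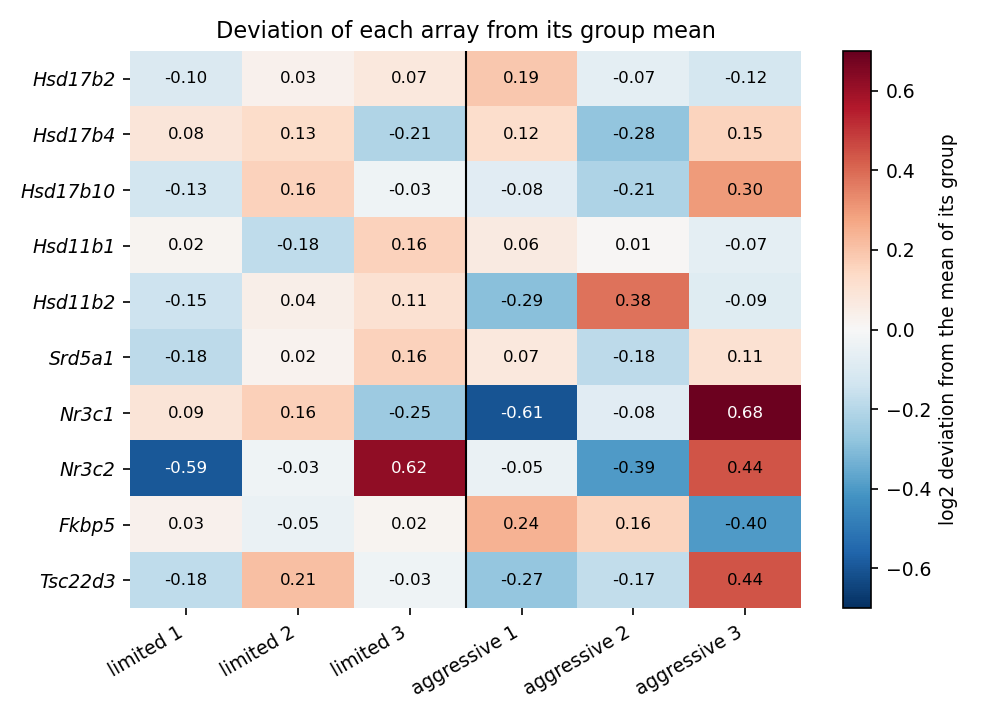
Log2 deviation of each array from the mean of its own regimen for the 10 genes, with columns for arrays and a line between regimens. Aggressive array 3 is above its group mean for Nr3c1 (0.68) and Tsc22d3 (0.44) and below it for Fkbp5 (-0.40).

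The genes most like Hsd17b2 over the 6 arrays, out of 7122 compared, were Adh1c, Cd5l, C1h16orf54, C17h7orf25 and Slc5a3, with Pearson correlations of 0.985 to 0.995. Selection by likeness to Hsd17b2 fixed their split between regimens. Adh1c encodes an alcohol dehydrogenase of hepatocytes, and was 18087, 19269 and 17636 under limited and 8726, 7374 and 7471 under aggressive resuscitation. Cd5l is a product of Kupffer cells, the resident macrophages of liver, at 10362 to 12471 under limited and 5857 to 6985 under aggressive resuscitation. The 9 measured of 11 Kupffer and macrophage markers, Cd5l among them, summed to 43962 to 50988 under limited and 29309 to 34427 under aggressive resuscitation. A log2 difference above 0 was found for 9 of 9. Of these 9, 0 passed over all rows by limma and 6 had an unadjusted p under 0.05, all higher, beside 6.86% of all rows; above 0 were 3665 of the 7126 genes with a symbol. Their part in the value of Hsd17b2 was not tested. The genes most like Nr3c1 were Igbp1, Slc52a3, Pcdhgb7, Septin4 and Trpv4, with correlations of 0.987 to 0.995. Their selection fixed the order of the arrays, as in Septin4, at 50.1, 81.9 and 243 on the aggressive arrays.

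Among 19 measured of 24 other hydroxysteroid dehydrogenases and related reductases, 0 passed by limma over all rows, while 4 had an unadjusted p under 0.05, all of them higher under limited resuscitation. The share over all rows was 6.86% higher at that p. The count of 0 became 2, both higher, without dim rows or with a robust prior that follows intensity. Called rows of the whole table rose there from 22 to 483 and 570, respectively. The median log2 difference was -0.02, against 0.01 over all rows, but 0.30 without limited array 3, 0.17 without aggressive array 3, -0.08 without limited array 1 and 0.34 without aggressive arrays 1 and 3. Hsd17b7, which reduces a keto group in cholesterol synthesis, was 1058, 1000.4 and 1275 under limited and 448, 444 and 558 under aggressive resuscitation, without overlap. Its log2 difference was 1.20 (adjusted p = 0.0901, limma). Hsd3b7, an enzyme of bile acid synthesis, differed by 0.72 and Hsd17b13, a lipid droplet protein of hepatocytes, by 0.44, with adjusted p of 0.181 and 0.367 (limma). A total of 6 of 19 genes had groups that did not overlap, all higher under limited resuscitation, beside 10.0% of all rows.

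Steroid reduction, conjugation and binding had 19 measured of 24 genes, of which 0 passed by limma, with 3 higher and 4 lower at an unadjusted p under 0.05, beside 6.86% and 6.19% of all rows. The median was 0.01, but -0.20 without limited array 2, -0.10 without aggressive array 2 and 0.09 without aggressive array 3. Without dim rows, or with a robust prior that follows intensity, 2 higher and 2 lower genes passed. Rows called over the whole table were 483 and 570 there, against 22 in the main fit. Cyp3a9, a cytochrome P450 of steroid and drug oxidation, was 667, 332 and 589 under limited and 2805, 1764 and 2107 under aggressive resuscitation. That was a log2 difference of -2.11, with an adjusted p of 0.0797 by limma. Its relatives Cyp3a18 (-0.74), Cyp3a2 (-0.44) and Cyp3a23-3a1 (-0.30) also had groups without overlap, although probes of this family may share targets. Akr1d1, the steroid 5-beta-reductase of bile acid synthesis, differed by 1.02, with 3752 ± 584 against 1861 ± 376 (SD, n = 3). Sult2a6, a hydroxysteroid sulfotransferase, differed by 0.90, at 1375, 1686 and 2051 against 1117, 736 and 896. Serpina6, the plasma carrier of corticosteroids, differed by 0.03 and overlapped.

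Of the adrenal steroid synthesis genes 5 of 12 were measured, and 0 passed by limma. At an unadjusted p under 0.05, 1 was higher, beside 6.86% of all rows. All 5 lay above 0, beside 3665 of the 7126 genes with a symbol. The median of the 5 was 0.48, and was 0.31 without limited array 2 and 0.69 without aggressive arrays 1 and 3. Without dim rows 1 gene passed, beside 483 called rows of the whole table, against 22 in the main fit. Cyp17a1, the steroid 17-alpha-hydroxylase, was 571, 500.0 and 348 under limited and 345, 183 and 250.4 under aggressive resuscitation, a log2 difference of 0.88 (adjusted p = 0.299, limma). Fdxr, the mitochondrial reductase that feeds electrons to P450 enzymes, differed by 0.48 and Cyp21a1, the 21-hydroxylase, also by 0.48, without passing. Star, the cholesterol transfer protein of steroid-making cells, was 151 to 275 under limited and 166 to 259 under aggressive resuscitation.

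Chaperones and co-regulators of the receptors had 10 measured of 22 genes, 0 of which passed by limma. At an unadjusted p under 0.05, 1 was higher and 2 were lower, beside 6.86% and 6.19% of all rows. The median of the list was -0.12, and was -0.03 without limited array 3 and -0.21 without limited array 2. Without dim rows, or with a robust prior that follows intensity, 1 gene passed, higher. The whole table then had 483 and 570 called rows, against 22 in the main fit. Hspa4, an HSP70-family chaperone, was 1146, 953 and 1211 under limited and 1641, 1740 and 1547 under aggressive resuscitation, a log2 difference of -0.58. Ppargc1a, the coactivator PGC-1alpha, differed by -1.09 and was dim, at 48.7, 58.5 and 37.6 against 78.5, 142 and 91.8. Crebbp, an acetyltransferase coactivator, differed by 1.20, at 381, 326 and 350.3 against 259, 109 and 128. Their adjusted p values lay between 0.209 and 0.274 (limma). Hsp90ab1, the constitutive HSP90 chaperone, differed by -0.18 and overlapped. The other HSP90 gene of the list, Hsp90aa1, differed by -0.31 without overlap and did not pass (adjusted p = 0.498, limma). Without overlap, 1 gene of the list was higher and 3 were lower, beside 10.0% and 9.76% of all rows.

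Other steroid and xenobiotic receptors had 9 measured of 11 genes and 0 that passed by limma, with 2 higher at an unadjusted p under 0.05, beside 6.86% of all rows, and a median of 0.20. That median was 0.07 without aggressive array 1, 0.11 without limited array 2 and -0.11 without aggressive arrays 1 and 3. Without dim rows 1 gene passed, and 2 passed with a robust prior that follows intensity, all higher. Called rows of the whole table were 483 and 570 in these settings, against 22 in the main fit. Nr1i3, the constitutive androstane receptor, was 656, 779 and 626 under limited and 297, 387 and 363 under aggressive resuscitation, a log2 difference of 0.98 without overlap (adjusted p = 0.141, limma). Nr1h4, the bile acid receptor FXR, differed by 0.74 and Nr0b2, its target SHP, by -0.43, with adjusted p of 0.344 and 0.549 (limma).

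**Figure D4:**
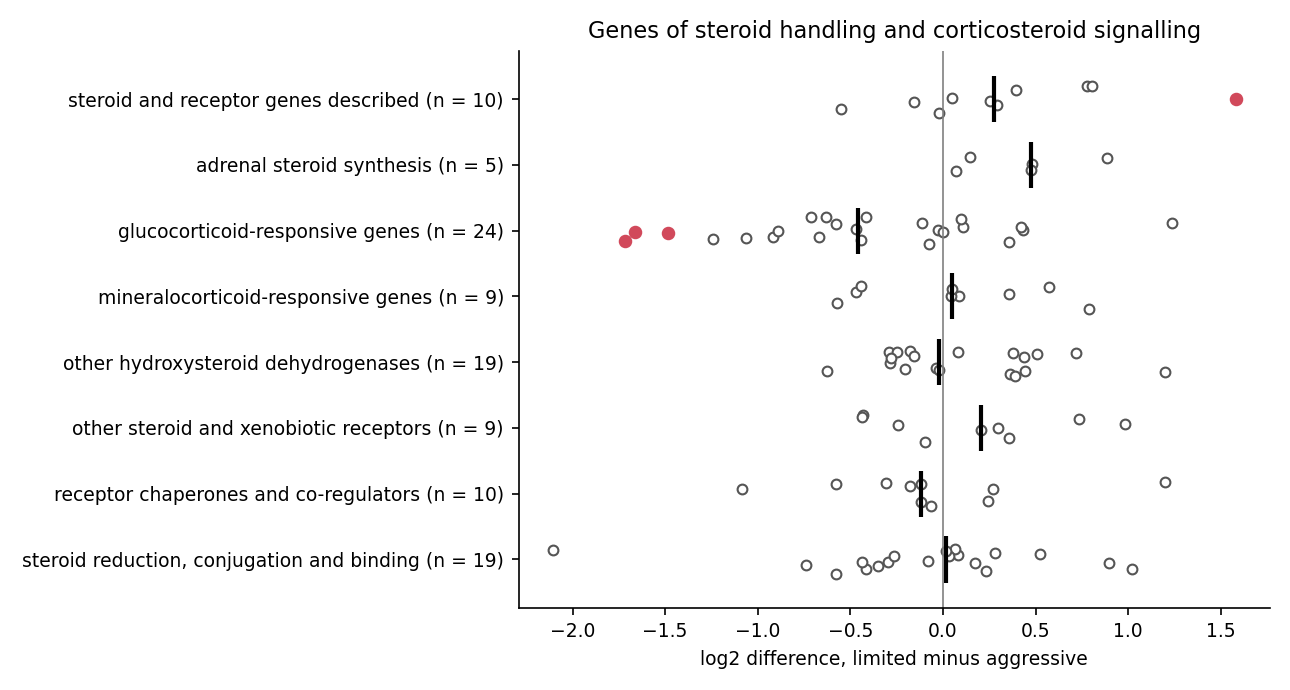
Log2 difference (limited minus aggressive) of every measured gene in the 10 described and in the 7 lists around them, with filled points for an adjusted p under 0.05 and a black bar at the median. The glucocorticoid-responsive genes have the lowest median (-0.46) and the 3 filled points below 0, and the only filled point above 0 is Hsd17b2.

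Glucocorticoid-responsive genes other than Fkbp5 and Tsc22d3 numbered 24 measured of 30, of which 3 were lower under limited resuscitation and 0 higher at an adjusted p under 0.05 in limma, beside 0.0724% and 0.0414% of all rows. The count was 10 lower and 1 higher with a robust prior that follows intensity, and 6 and 1 without dim rows. It was 1 and 0 with centred arrays, and 0 in either direction with the replicate number as a block. Called rows of the whole table moved as well, from 22 to 570, 483, 15 and 0 in the same order of settings. The median log2 difference of the list was -0.46, against 0.01 over all rows, with 17 genes below and 7 above 0. At an unadjusted p under 0.05, 14 were lower and 1 higher, beside 6.19% of all rows lower and 6.86% higher. The genes that passed were Sds, Ddit4 and Tat. They were lower under limited than under aggressive resuscitation by 1.66, 1.72 and 1.48 on the log2 scale (adjusted p = 0.0482 for each, limma). When aggressive arrays 1 and 3 were left out, the median of the list was -0.34. With any single array left out 0 genes of the list passed by limma, and the median lay between -0.48 and -0.44. The list was written with earlier results of these data known, so its direction is no independent evidence.

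Of the 24 glucocorticoid-responsive genes, 13 were lower and 2 higher under limited resuscitation without overlap, beside 9.76% and 10.0% of all rows. The 2 higher were Angptl4 (log2 difference 1.24, adjusted p = 0.150, limma) and Cebpd (0.43, adjusted p = 0.397, limma). Most of the 13 lower genes stood in another order within the aggressive group than Fkbp5, whose order Ddit4 and Sgk1 shared. Per1, a clock gene with a glucocorticoid response element, was 1446, 2464 and 2081 under limited and 2735, 2984 and 3988 under aggressive resuscitation. Klf9, a Kruppel-like factor induced by the receptor, was 1407, 1677 and 1776 against 2585, 2012 and 3002. Aggressive array 3 was the highest of all for both, whereas it was the lowest aggressive array for Fkbp5. Sgk1, a kinase induced by both corticosteroid receptors, had groups without overlap, at 4300.3, 4061 and 4061 against 6455, 5640 and 5171, and array 3 was again the lowest aggressive array. The log2 differences were -0.71 for Per1, -0.63 for Klf9 and -0.47 for Sgk1, and none of these 3 passed (adjusted p = 0.337, 0.304 and 0.344, limma). Per1, Klf9, Angptl4 and Cebpd were chosen for mention after their values were seen. Tdo2, the tryptophan dioxygenase, had overlapping groups and a log2 difference of -0.03 (interval -0.53 to 0.47).

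Mineralocorticoid-responsive genes had 9 measured of 11, Tsc22d3 among them, and 0 passed by limma, with a median of 0.05. At an unadjusted p under 0.05, 1 was higher and 1 lower, beside 6.86% and 6.19% of all rows. The lower gene was Sgk1, which was also counted among the glucocorticoid-responsive genes. Without Tsc22d3 the median was 0.07, and 0.33 when aggressive arrays 1 and 3 were left out. Scnn1a, a subunit of the epithelial sodium channel, was 231, 289 and 218 under limited and 186, 101 and 151 under aggressive resuscitation, a log2 difference of 0.79 (adjusted p = 0.300, limma). Atp1b1, a subunit of the sodium pump, differed by -0.44, with overlapping groups (adjusted p = 0.474, limma). The channel subunit Scnn1b was dim, at 27.4 to 40.1 under limited and 60.0, 23.9 and 87.1 under aggressive resuscitation, its higher values being those of the arrays with lung transcripts.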

How the data were processed

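Liver RNA of 6 rats was measured on 1-colour NimbleGen arrays, 3 per regimen. The deposited intensities, 1 per array for 19345 RefSeq transcript rows, came from RMA per the submitters' processing notes; version, build and filters are not given in the sources used. They are linear, so log2 was taken. Accessions without versions were matched to symbols in a RefSeq table of GRCr8, which named 7223 rows and left 12122 unnamed. Label fields name both Trizol and RNeasy for extraction.

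All rows were fitted with limma 3.58.1 under R 4.3.3 by lmFit and eBayes (two-sided; residual degrees of freedom 4, prior 3.26). P-values were adjusted by Benjamini-Hochberg across the whole table, the threshold being 0.05. Every difference is limited minus aggressive, and intervals are moderated 95% intervals for 1 row at a time. The fit was tested on simulated data. The number of arrays limits the precision. Groups and replicate numbers came from the titles, and 0 pairs of arrays were identical. Nothing in the labels says that equal numbers mark shared animals or days, and deviations of same-numbered arrays correlated at -0.06, -0.05 and 0.05.

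The genes, the 7 gene lists and the 9 marker lists were chosen with earlier results of these data known. Named were all 10 genes, the 3 genes with the smallest p of each gene list and any that passed, and the 5 genes most correlated with Hsd17b2 and with Nr3c1. Further genes are examples from their lists, picked after their values were seen. Alternatives were another normalisation, centring, a pseudocount, a filter on dim rows, the variance model, weights per array, a block for the replicate number, the rule for several rows per gene, and arrays left out. Figures were drawn with matplotlib 3.10.9.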

Additional observations from a re-analysis of the deposited data

How the results depend on the processing

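With 3 arrays per regimen and an adjusted p just under the threshold for Hsd17b2, the calls depended on the setting while its difference stayed between 1.52 and 1.67 in all 16 alternatives. Of the 10 genes, 1 was called, 0 with centred arrays (Hsd17b2 1.54, adjusted p = 0.0654, limma), 0 with the replicate number as a block (1.58, adjusted p = 0.293, limma), 0 without aggressive arrays 1 and 3 together and 0 with each array left out. It was 2, with Srd5a1 added, without dim rows and with an intensity trend and robust prior. Called genes of the 7 lists numbered 3, but 1 with centred arrays, 16 without dim rows, 20 with the trend and robust prior, 0 with the replicate block, 0 without aggressive arrays 1 and 3 and 0 with each array left out. With 1 row per gene symbol, a setting applied to the lists after seeing the data, they were 6, namely 4 glucocorticoid-responsive genes and 1 of steroid reduction, conjugation and binding, lower, and 1 other hydroxysteroid dehydrogenase, higher. The 22 called rows of the whole table became 69 with log2(value + 16), 483 without dim rows, 570 with the trend and robust prior, 0 with the replicate block, 58 with 1 row per gene symbol, 0 without aggressive arrays 1 and 3 and 0 to 2 with each array left out. The block uses replicate numbers that pair no samples by the labels, and leaving out arrays or rows changes how many are tested. The cause of the other changes was not tested.

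Signs turned for Hsd17b10, Tsc22d3 and Hsd11b2, none of which passed in any setting. Hsd17b10, at -0.02, was 0.039 after a second quantile normalisation, 0.19 without aggressive arrays 1 and 3, and between -0.13 and 0.13 with each array left out (0.044 without limited array 1, 0.13 without aggressive array 3). Tsc22d3, at 0.05, lay between -0.09 and 0.27 with each array left out, with -0.059 without limited array 2, -0.088 without aggressive array 1 and -0.039 without aggressive array 2. Hsd11b2, at 0.29, was -0.086 without aggressive arrays 1 and 3. Dim rows (Hsd11b2, Nr3c1 and Nr3c2) had no value when they were filtered out.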
